A study of Vitis vinifera with 26 samples.

Results

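A set of 63 assembled loci was on in control grape berries 6 and 7 weeks after anthesis (WAA) and listed at 0 in every control library a week later. They are 63 of 33229 loci in all, or 0.190%. A locus was called on at 0.5 units or more, where a unit is the constant step between the deposited values of a library. Members had to be on in all 3 controls of 6 WAA and all 5 controls of 7 WAA, and under 0.5 units in all 5 controls of 8 WAA. The loci were thus chosen by the control values, which are described here without a test. Clusters treated with 1-methylcyclopropene (1-MCP) took no part in the choice, and all tests compared weeks within them. Only the fit with all 26 libraries, given at the end, also drew its spread from the controls.

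RNA was sequenced from berry tissue of the cultivar 'Pinot Noir' (Vitis vinifera), taken from plants 8 years old. Treated clusters were enclosed in a bag with 5 ppm of 1-MCP for 24 h, control clusters had a mock treatment, and sampling followed after 24 h. There were 13 treated libraries (3 at 6 WAA, 5 at 7 WAA and 5 at 8 WAA) and 13 control libraries in the same numbers. Per the series design text, a treated and a control cluster hung on each plant, so the treated libraries are other clusters but not other plants. A description label calls all 26 libraries treated clusters, and the division into treated and control rests on titles and source names. Berry tissue was not divided into skin, flesh and seed, and a lower value cannot tell fewer expressing cells from less RNA per cell. The identity of the tissue was not checked against marker genes, because the files do not pair identifiers with gene names.

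Grape berries pass from a green, growing phase through véraison, the onset of ripening, when they soften, accumulate sugar and, in dark cultivars, begin to colour. Transcripts of the green phase are known to decline across this transition. Ethylene is perceived by receptors that 1-MCP, a gas, occupies and blocks. Grapes are classed as non-climacteric fruit, in which ethylene has a smaller known part in ripening than in tomato or apple.

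Each library held 20368 to 23485 units in all and 13912 to 15261 loci on, and 62.7% to 68.9% of the loci on stood at 1 unit, so the values mostly say whether a locus was present. Fewer loci of any kind were on at 8 WAA. Controls had a mean of 14709, 14815 and 14144 loci on at 6, 7 and 8 WAA, and treated clusters 14830, 14902 and 14399. Among the treated clusters 2 libraries stood apart in the member loci. Replicate 4 of 7 WAA had 34 of the 63 members on, and the other 4 treated libraries of that week had 58, 60, 62 and 61. Replicate 1 of 8 WAA also had 34 on, and the other 4 treated libraries of that week had 11, 6, 4 and 11. Over the other loci, with members left out, replicate 4 of 7 WAA correlated more with the mean of the 8 WAA controls (r = 0.709) than with that of the 7 WAA controls (r = 0.687, on the log2(units + 1) scale). The other 4 treated libraries of 7 WAA had the opposite order, with r from 0.656 to 0.677 against 8 WAA and from 0.710 to 0.723 against 7 WAA. Control replicate 2 of 7 WAA also leaned towards 8 WAA (r = 0.715 and 0.697), yet all members were on in it, as the choice required. Replicate 1 of 8 WAA was nearest to the 8 WAA controls (r = 0.735, and 0.719 with those of 7 WAA), the smallest such gap among the 5 treated libraries of 8 WAA. Whether these clusters differed in ripeness, in handling or in labelling was not tested, and results that rest on them are given with and without them. Both were singled out by the members' own values, so no p-value of a member without them is separate evidence.

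**Figure D1:**
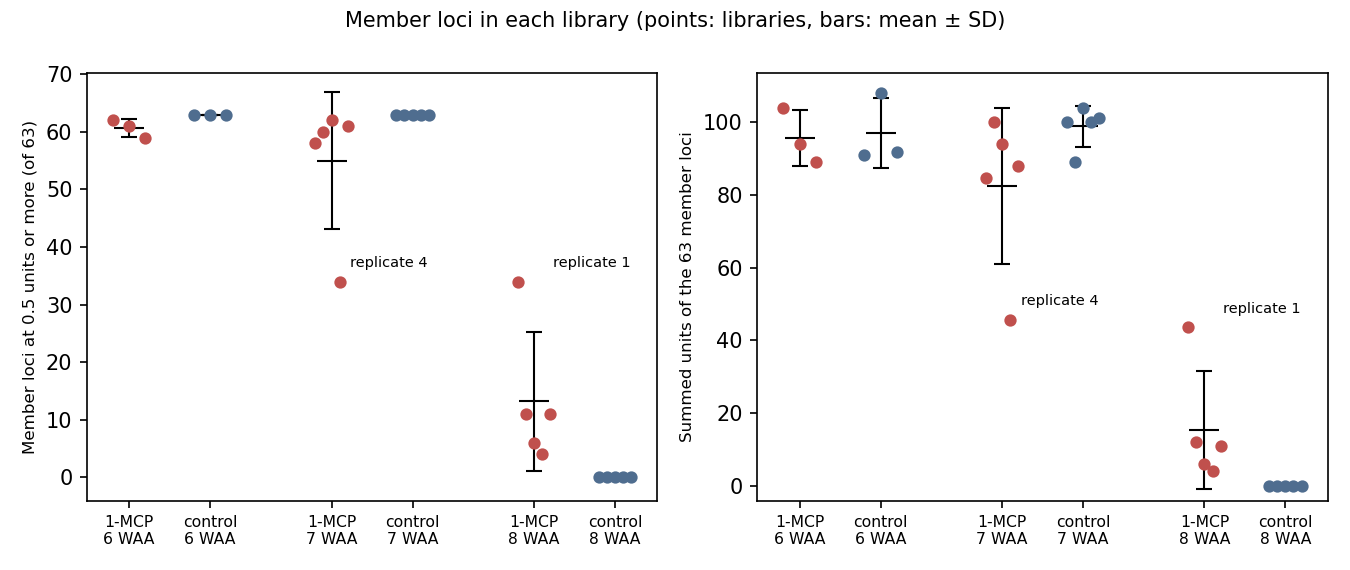
Number of member loci on (left, of 63) and their summed units (right) in each library, with treated clusters left of controls at each week; points are libraries and bars the mean ± SD. Controls stand at 63 or 0 by the choice of members, and replicate 4 of treated 7 WAA and replicate 1 of treated 8 WAA both stand at 34.

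In the treated clusters the members were also largely on at 6 and 7 WAA and largely off at 8 WAA. At 6 WAA the 3 treated libraries had 62, 61 and 59 members on, and 57 of the 63 were on in all 3. At 7 WAA, 29 members were on in all 5 treated libraries and 29 more in 4 of 5. At 8 WAA, 25 members (39.7%) were listed below 0.5 units in all 5 treated libraries, against 0.353% of the 9902 loci that were on in all 8 controls of 6 and 7 WAA, the members included. Of the 9839 such loci that were not members, 10 were off in all 5. A further 21 members were on in 1 treated library of 8 WAA, 9 in 2, 5 in 3 and 3 in 4, and no member was on in all 5. Of the 21, 19 were on in replicate 1 alone. Without that library 44 of the 63 members were off in every treated library of 8 WAA. The library was singled out by the members' own values, so the 44 does not stand as separate evidence. The matching share of the 9902 loci was not counted.

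Summed over the 63 loci, treated clusters had 95.7 ± 7.64 units at 6 WAA (SD of 3 libraries), 82.5 ± 21.4 at 7 WAA (SD of 5) and 15.3 ± 16.2 at 8 WAA (SD of 5). Controls had 96.9 ± 9.61, 98.8 ± 5.72 and 0 units at the same weeks, values that the choice of members set in part. The lowest treated library of 7 WAA (45.7 units) lay just above the highest of 8 WAA (43.6 units). Without replicate 4 of 7 WAA and replicate 1 of 8 WAA the treated sums were 91.7 ± 6.76 at 7 WAA and 8.25 ± 3.86 at 8 WAA (n = 4 each). No control library of 8 WAA had a unit in any member, so the treated clusters of 8 WAA had 4 to 34 members on and the controls none. This difference follows in part from choosing loci at 0 in those controls and was not tested.

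**Figure D2:**
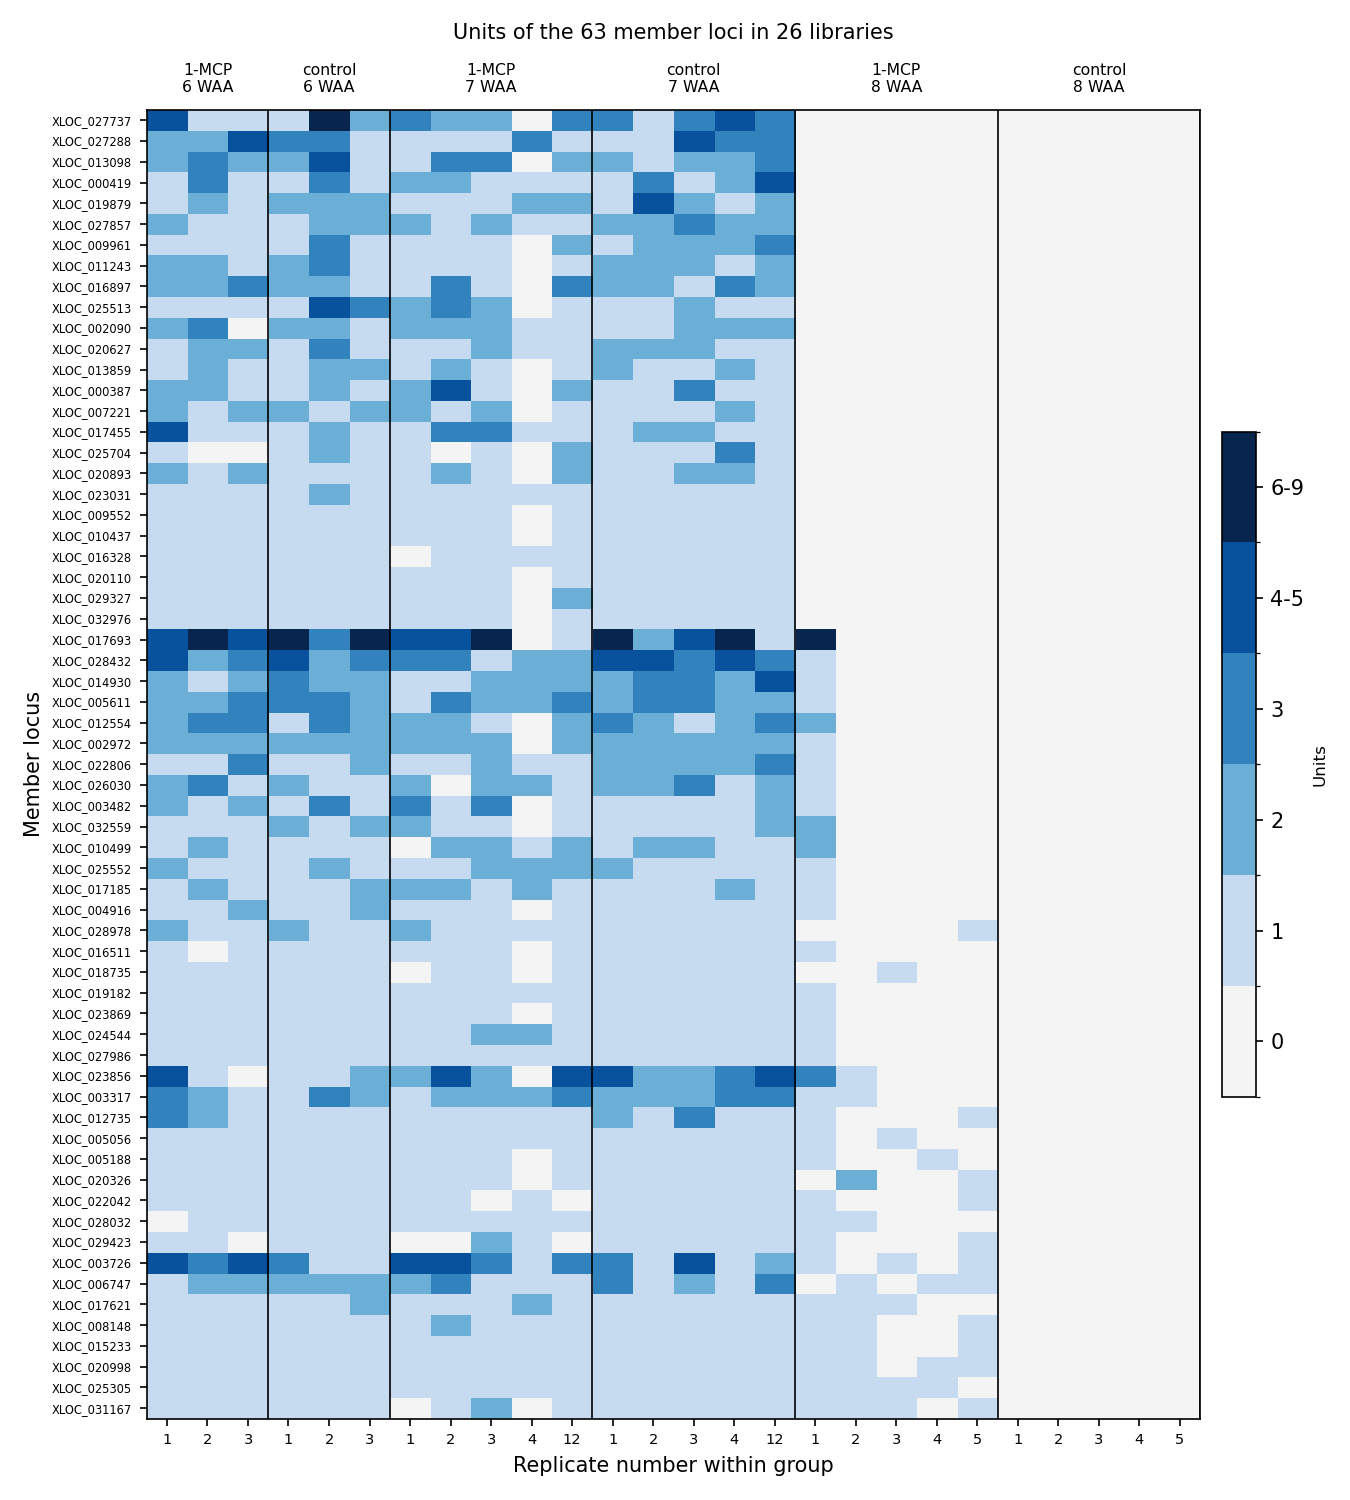
Units of each member locus (rows) in each library (columns, by week, treated clusters left of controls); darker blue is more units and pale grey is 0. Columns of treated 8 WAA are nearly empty except replicate 1, and the column of treated 7 WAA replicate 4 has 29 gaps.

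The change from 7 to 8 WAA was tested in the treated clusters with limma on log2(value + 1), with Benjamini-Hochberg adjustment over 17186 loci. All 63 members passed the filter on low values, which their presence at 6 and 7 WAA alone could satisfy. Of the members, 8 fell (12.7%) and none rose, against 0.198% of all tested loci that were lower at 8 WAA and 0.140% that were higher in the later week. The 8 were among 13 loci lower at 8 WAA of the 9893 tested that were on in all 8 controls of 6 and 7 WAA (0.131%). The log2 fold change was below -0.05 in 62 of 63 members and above 0.05 in 1, with a median of -0.93, and the median over all tested loci was 0.0026. At an unadjusted p under 0.05 in limma, 46 of the 63 were lower, and so were 879 of the 17186 tested loci.

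Without replicate 4 of 7 WAA and replicate 1 of 8 WAA, 37 of the 63 members fell (58.7%, limma, adjusted over 16891 loci), against 1.04% of all tested loci that were lower and 0.207% that were higher, and the 37 held all 8. Their log2 fold changes ran from -2.32 to -1.02, and the median over all 63 members was -1.17. In 9 of the 37 the SE was under 0.01, since the units did not vary within any week, and their p-values do not measure a spread between clusters. Both libraries were singled out by the members' own values, so this count does not stand as separate evidence. The count was 25 without replicate 4 of 7 WAA alone, and 12 without replicate 1 of 8 WAA alone. Over all tested loci 149 of 17043 and 60 of 17051 were then lower. Leaving out replicate 2 of 7 WAA, or any of replicates 2, 3 and 4 of 8 WAA, gave 4 (19 to 24 of all tested loci lower). Leaving out replicate 3 or 12 of 7 WAA, or replicate 5 of 8 WAA, gave 5 (20 to 29 of all tested loci lower).

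Between 6 and 8 WAA in treated clusters 8 members fell and none rose (limma), against 0.320% of tested loci that were lower and 0.157% that were higher. Of these 8, 6 had also fallen from 7 to 8 WAA. The count was 34 without the 2 libraries that stood apart (1.05% of all tested loci were then lower and 0.260% higher). It was 25 without replicate 4 of 7 WAA alone (148 of 17043 tested loci lower) and 15 without replicate 1 of 8 WAA alone (81 of 17051). Leaving out replicate 2 of 6 WAA, or any of replicates 2, 3 and 4 of 8 WAA, gave 5 (25 to 43 of all tested loci lower). Between 6 and 7 WAA no member passed in limma, and 0.105% of all tested loci were lower and 0.0407% higher. At an unadjusted p under 0.05 in limma, 2 members were lower, and so were 422 of the 17186 tested loci. Without the 2 libraries that stood apart no member passed either, and 0.172% of all tested loci were lower and 0.172% higher. The 3 comparisons share libraries and are not separate results.

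**Figure D3:**
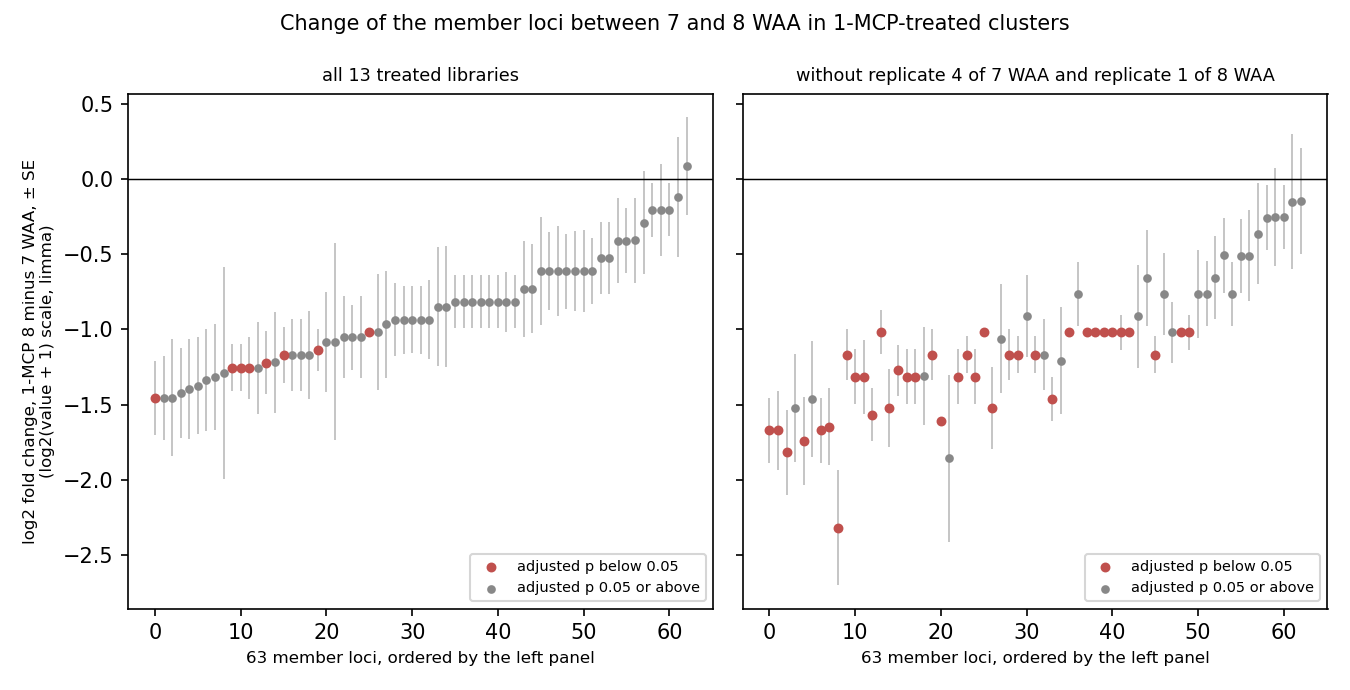
log2 fold change of each member between 7 and 8 WAA in treated clusters, with its SE, from all 13 treated libraries (left) and without the 2 libraries that stood apart (right); red points passed an adjusted p of 0.05 in limma. On the left 8 of 63 points are red, on the right 37.

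Of the 8 members that fell from 7 to 8 WAA, 4 kept their call whichever treated library was left out. The files pair none of the identifiers below with a gene name, and none of their roles is given here. Positions are those of the deposited table, with the start counted from 1, on a genome build not given in the sources used here. Where a locus shares its deposited range with another, the positions are those of the whole shared range. VIT_205s0020g03640 (XLOC_023031, chromosome 5, 5352030 to 5353849) stood at 1 unit in all 3 treated clusters of 6 WAA and all 5 of 7 WAA, and at 0 in all 5 of 8 WAA. Its units did not overlap between 7 and 8 WAA and had no spread within a week, so its log2 fold change of -1.02 (limma, adjusted p = 3.57e-15) has no measured error. In controls it stood at 1, 2 and 1 units at 6 WAA and at 1 unit in all 5 at 7 WAA.

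VIT_204s0069g00990 (XLOC_020627, chromosome 4, 9417125 to 9419932) had 1, 2 and 2 units in treated clusters at 6 WAA, 1, 1, 2, 1 and 1 at 7 WAA and 0 in all 5 at 8 WAA. Controls of 6 WAA had 1, 3 and 1 units and those of 7 WAA 2, 2, 2, 1 and 1. In treated clusters 8 WAA did not overlap with 6 or 7 WAA, which overlapped with each other. The log2 fold change from 7 to 8 WAA was -1.14 ± 0.14 (SE, limma, adjusted p = 0.00420). VIT_203s0088g00490 (XLOC_019879, chromosome 3, 8654122 to 8658569) had 1, 2 and 1 units in treated clusters at 6 WAA, 1, 1, 1, 2 and 2 at 7 WAA and 0 at 8 WAA. VIT_208s0032g00640 (XLOC_027857, chromosome 8, 3995614 to 3999604) had 2, 1 and 1 units at 6 WAA, 2, 1, 2, 1 and 1 at 7 WAA and 0 at 8 WAA. Both fell by 1.26 ± 0.16 on the log2 scale (SE, limma, adjusted p = 0.00463 each), and neither overlapped between 7 and 8 WAA. The highest adjusted p of these 3 loci without any 1 treated library was 0.0190. With the replicate numbers added to the model as a block, all 3 missed the threshold (limma, adjusted p from 0.0766 to 0.129).

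The other 4 calls depended on single libraries and on the processing. All 4 were lost with the replicate numbers as a block in the model (limma, adjusted p from 0.288 to 0.495), and 3 of them also under other settings. VIT_212s0035g01640 (XLOC_005611, chromosome 12, 21716471 to 21725839) had 2, 2 and 3 units in treated clusters at 6 WAA, 1, 3, 2, 2 and 3 at 7 WAA and 1, 0, 0, 0 and 0 at 8 WAA. Its single unit at 8 WAA came from replicate 1 and met the lowest value of 7 WAA. It fell by 1.46 ± 0.25 on the log2 scale (SE, limma, adjusted p = 0.0401), and the adjusted p was 0.00346 without that library. The call was lost when any 1 replicate of 6 WAA, replicate 2, 3 or 12 of 7 WAA, or any of replicates 2 to 5 of 8 WAA was left out, with an adjusted p of up to 0.120. With only 7 and 8 WAA in the fit the adjusted p was 0.114.

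VIT_219s0015g01230 (XLOC_017185, chromosome 19, 9387283 to 9393850) was the member nearest to the 0.5 unit limit in a treated library, with 0.595 units in replicate 1 of 8 WAA and 0 in the other 4. It had 1.67, 2, 1, 1.69 and 1 units in treated clusters of 7 WAA, with a log2 fold change of -1.17 ± 0.19 from 7 to 8 WAA (SE, limma, adjusted p = 0.0280). Its call ended on leaving out replicate 1 or 2 of 7 WAA, or any of replicates 2 to 5 of 8 WAA, with an adjusted p of up to 0.0847. Rounding to whole units also ended it (adjusted p = 0.108, and 0.0565 without constant loci). VIT_201s0026g00030 (XLOC_000419, chromosome 1, 8665693 to 8668465) had 1, 3 and 1 units in treated clusters at 6 WAA, 2, 2, 1, 1 and 1 at 7 WAA and 0 at 8 WAA. Its log2 fold change was -1.26 ± 0.20 (SE, limma, adjusted p = 0.0315), and the call survived leaving out any 1 replicate of 6 WAA or replicate 4 of 7 WAA. Leaving out any 1 of the other 9 treated libraries ended it, with an adjusted p of up to 0.0871. VIT_208s0040g02590 (XLOC_027288, chromosome 8, 13597927 to 13635788) had 2, 2 and 4 units at 6 WAA, 1, 1, 1, 3 and 1 at 7 WAA and 0 at 8 WAA. Its log2 fold change was -1.22 ± 0.21 (SE, limma, adjusted p = 0.0442), and it passed only when replicate 3 of 6 WAA or replicate 4 of 7 WAA was the library left out, with an adjusted p of up to 0.117 otherwise. It also missed the threshold with no filter (adjusted p = 0.0508), scaled totals (0.0524) or whole units (0.0506).

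Of the 8 members with the most units in controls of 6 and 7 WAA, 6 did not pass from 7 to 8 WAA. A locus that spans VIT_202s0025g02280, VIT_202s0025g02290 and VIT_202s0025g02300 (XLOC_017693, chromosome 2, 2029175 to 2040913) had the highest mean over the 8 controls of 6 and 7 WAA, 5.25 units. In treated clusters it had 5, 7 and 5 units at 6 WAA, 5, 5, 7, 0 and 1 at 7 WAA and 6, 0, 0, 0 and 0 at 8 WAA. The 0 of 7 WAA came from replicate 4 and the 6 of 8 WAA from replicate 1, the same libraries that stood apart over all members. Its log2 fold change from 7 to 8 WAA was -1.29 ± 0.71 (SE, limma, adjusted p = 0.766), and -2.32 ± 0.38 without both (adjusted p = 0.0215). Controls had 7, 3 and 9 units at 6 WAA and 9, 2, 4, 7 and 1 at 7 WAA.

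VIT_208s0007g08800 (XLOC_027737, chromosome 8, 22170222 to 22180719) had 4, 1 and 1 units in treated clusters at 6 WAA, 3, 2, 2, 0 and 3 at 7 WAA and 0 in all 5 at 8 WAA. The single 0 at 7 WAA was replicate 4, and the adjusted p was 0.223 with it 0.00636 without it and 0.0149 without both libraries that stood apart (limma, lower at 8 WAA in each). VIT_208s0007g05500 (XLOC_028432, chromosome 8, 19431273 to 19441077) had 5, 2 and 3 units at 6 WAA, 3, 3, 1, 2 and 2 at 7 WAA and 1, 0, 0, 0 and 0 at 8 WAA. Its adjusted p for 7 to 8 WAA in limma was 0.0895, and it was 0.0126 without replicate 1 of 8 WAA and 0.0167 without both. VIT_218s0001g08700 (XLOC_014930, chromosome 18, 7156219 to 7166250) had 1, 1, 2, 2 and 2 units at 7 WAA and 1, 0, 0, 0 and 0 at 8 WAA in treated clusters, with an adjusted p of 0.106, against 0.00590 without replicate 1 of 8 WAA and 0.00811 without both (limma). Each of these 3 loci had a gap in replicate 4 of 7 WAA or a unit in replicate 1 of 8 WAA. Such members are what singled out the 2 libraries, so their p-values without them are not separate evidence.

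Both other loci of high mean units stayed short of the threshold with or without the libraries that stood apart. VIT_206s0004g03470 (XLOC_023856, chromosome 6, 4326120 to 4334814) had 5, 1 and 0 units in treated clusters at 6 WAA, 2, 5, 2, 0 and 5 at 7 WAA and 3, 1, 0, 0 and 0 at 8 WAA (limma, adjusted p = 0.838, and 0.247 without both libraries). VIT_211s0065g00460 (XLOC_003317, chromosome 11, 14288412 to 14305167) had 3, 2 and 1 units at 6 WAA, 1, 2, 2, 2 and 3 at 7 WAA and 1, 1, 0, 0 and 0 at 8 WAA (limma, adjusted p = 0.175, and 0.167 without both). It touched 1 unit at both weeks.

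A few members remained on in most treated clusters of 8 WAA, where each stood at 1 unit. VIT_207s0104g00960 (XLOC_025305, chromosome 7, 2082661 to 2083736) stood at 1 unit in all 8 treated clusters of 6 and 7 WAA and at 1, 1, 1, 1 and 0 units at 8 WAA. XLOC_020998 (chromosome 4, 21395957 to 21396846), a transcript on the strand opposite to VIT_204s0044g00560, stood at 1 unit in the same 8 and at 1, 1, 0, 1 and 1 at 8 WAA. VIT_200s0516g00010 (XLOC_031167, unplaced sequence, 31050622 to 31053065) had 1 unit in all 3 at 6 WAA, 0, 1, 2, 0 and 1 at 7 WAA and 1, 1, 1, 0 and 1 at 8 WAA. All 3 stood at 1 unit in all 8 controls of 6 and 7 WAA and at 0 in all 5 of 8 WAA. None passed between 7 and 8 WAA in treated clusters, with log2 fold changes of -0.20 ± 0.18, -0.20 ± 0.18 and 0.09 ± 0.33 (SE, limma, adjusted p = 0.838, 0.838 and 0.945). Whether the authors counted by strand is not known, so the antisense locus and its partner cannot be told apart with certainty.

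Members of the lowest level in controls were more often on in treated replicates 2 to 5 of 8 WAA. In 23 members the value was 1 unit in all 8 controls of 6 and 7 WAA, and the other 40 exceeded 1 unit in at least 1 of them. In treated replicates 2 to 5 of 8 WAA, 22.8% of the values of the 23 loci were on and 6.88% of those of the 40. Replicate 1 of 8 WAA had 15 of the 23 and 19 of the 40 on, the same order. Replicate 4 of 7 WAA had 12 of the 23 and 22 of the 40 on, close to even. The same members did not always separate these 2 libraries, since 23 members were on in both, 11 only in replicate 4 of 7 WAA, 11 only in replicate 1 of 8 WAA and 18 in neither.

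The treated clusters were next described over all 9902 loci that were on in the 8 controls of 6 and 7 WAA, ordered by how many controls of 8 WAA had them on. Treated replicates 2 to 5 of 8 WAA had 12.7% of values on for the 63 members, 39.4% for the 47 loci on in 1 control of 8 WAA, 63.3% for the 90 on in 2, 77.9% for the 195 on in 3, 91.9% for the 750 on in 4 and 98.8% for the 8757 on in all 5. Replicate 1 of 8 WAA had 54.0%, 72.3%, 78.9%, 83.6%, 94.8% and 98.9% on in the same classes, above the pooled share of the other 4 in each class and by most among members. Replicate 4 of 7 WAA had 54.0%, 63.8%, 67.8%, 77.9%, 90.5% and 98.3% on. The other 4 treated libraries of 7 WAA had 95.6%, 89.9%, 87.5%, 91.7%, 94.4% and 98.8%. The values of the 2 libraries were thus displaced in the partly silent loci as well. Members stand at the end of this order because the choice put them there. The shares of the other 4 treated libraries of 7 WAA did not rise steadily along it.

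**Figure D4:**
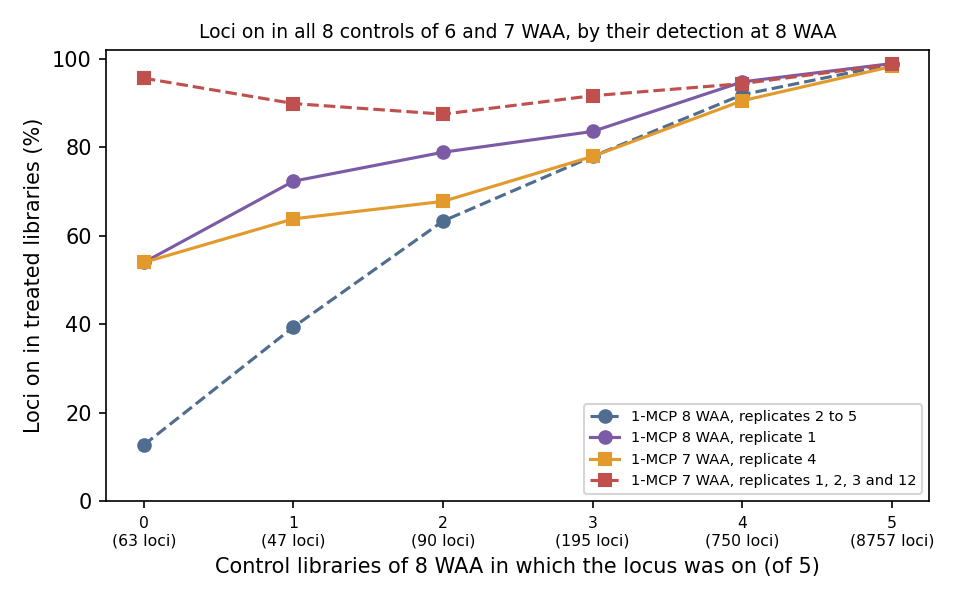
Share of loci on in treated libraries (vertical axis, %) for loci on in all 8 controls of 6 and 7 WAA, by the number of 8 WAA controls in which they were on (horizontal axis). Members are at 0, where replicates 2 to 5 of treated 8 WAA have 12.7% on and both libraries that stood apart have 54.0%.

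No member had a control value near the limit of 0.5 units, but most were only 1 step above 0 in at least 1 earlier control. Demanding 1.5 units in all controls of 6 and 7 WAA left 4 members. The lowest value over the 8 controls of 6 and 7 WAA was 1 unit in 59 members and 2 units in 4, and every member was listed at exactly 0 in the controls of 8 WAA. Counting any value above 0 as on gave 64 loci in place of 63. Just outside lay 47 loci that missed membership by 1 control of 8 WAA. The one with the highest mean, a locus spanning VIT_218s0041g01510 and VIT_218s0041g01580 (XLOC_014518, chromosome 18, 26310442 to 26416628), had 2, 1, 0, 1 and 0 units in treated clusters of 8 WAA, against 1, 0, 0, 0 and 0 in controls. XLOC_029392 (chromosome 9, 21929404 to 22119086), which spans 5 identifiers, had 3, 1, 2, 0 and 1 in treated clusters, against 2, 0, 0, 0 and 0 in controls. VIT_218s0001g07550 (XLOC_013858, chromosome 18, 5807533 to 5821103) had 2, 1, 0, 0 and 0 in treated clusters, against 0, 0, 1, 0 and 0 in controls.

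The members were scattered over the genome. All 19 numbered chromosomes held at least 1, with 60 members, and 3 lay on unplaced sequence. Chromosome 8 had 6 members, or 9.52% of them, and 6.70% of the loci on in all 8 controls of 6 and 7 WAA. Chromosome 19 had 5 members (7.94%, against 4.22% of those loci), and chromosome 14 had 2 (3.17%, against 6.92%). These counts are too small to compare chromosomes. No pair of members had deposited ranges within 100 kb. The closest were VIT_200s0516g00010 and VIT_200s0508g00040 (XLOC_032559) on unplaced sequence, with 122473 bases between their ranges. XLOC_032559 shares its range with another locus.

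**Figure D5:**
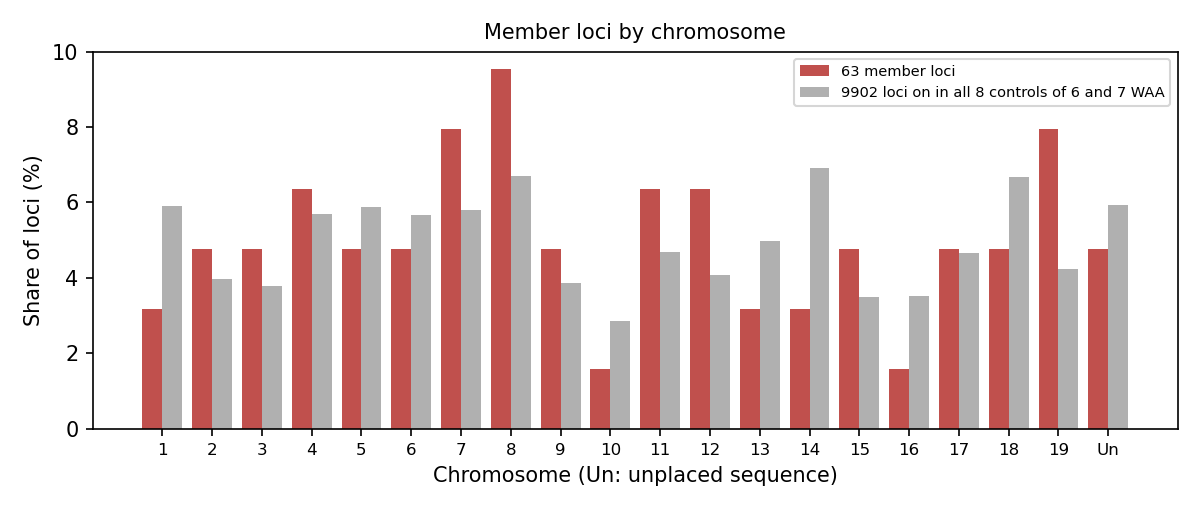
Share of the 63 member loci (red) and of the 9902 loci on in all 8 controls of 6 and 7 WAA (grey) on each chromosome, in %. Each of the 19 chromosomes has a member, the largest red bar is chromosome 8 at 9.52%, and sequences with 100 or fewer of these loci, which hold no member, are not drawn.

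Neighbours of members that were on in the earlier controls stayed on at 8 WAA about as often as other such loci. Of 126 neighbours, the nearest locus on each side, 44 were on in all 8 controls of 6 and 7 WAA, and 38 of these (86.4%) were on in all 5 controls of 8 WAA. The share over all loci on in the 8 earlier controls was 88.4%. No neighbour was itself a member. Among those 44 neighbours, 1 was on in a single control of 8 WAA, VIT_218s0001g07550, described above, which lies 905 bases before XLOC_013859, a member spanning VIT_218s0001g07560 and VIT_218s0001g07580 (chromosome 18, 5822009 to 5844894). In treated clusters XLOC_013859 had 1, 2 and 1 units at 6 WAA, 1, 2, 1, 0 and 1 at 7 WAA and 0 in all 5 at 8 WAA. This pair was picked out after its values were seen, and how the authors divided reads between such neighbours is not known. Of the 63 members, 14 (22.2%) share their deposited range with another locus, against 25.2% of the loci on in the earlier controls. XLOC_013859 is 1 of the 14, so the 905 bases run to the edge of a shared range.

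Members had fewer assembled isoforms than other loci on at the same weeks. A single isoform was assembled for 23 of 63 members (36.5%), against 18.3% of the 9902 loci, and the median was 2 against 4 isoforms. Their longest isoform had a median length of 1970 bases, against 2478. An isoform identical in its splice structure to a reference transcript was present in 56 members (88.9%, against 96.1%), and a form with at least 1 shared and some differing splice junction in 27 (42.9%, against 60.8%). Only 1 member was an antisense transcript (1.59%, against 1.65%), and 3 spanned several reference identifiers (4.76%, against 11.2%). These differences were not tested.

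A reference identifier was lacking for 6 members (9.52%, against 2.15% of the 9902 loci). XLOC_009552 (chromosome 14, 22055217 to 22055865) and XLOC_010437 (chromosome 15, 12843392 to 12844846) had the same values, 1 unit in all treated clusters of 6 WAA, 1, 1, 1, 0 and 1 at 7 WAA and 0 in all 5 at 8 WAA. XLOC_011243 (chromosome 16, 13708240 to 13712106) had 2, 2 and 1 units at 6 WAA, 1, 1, 1, 0 and 1 at 7 WAA and 0 at 8 WAA. In each the only 0 of 7 WAA was replicate 4, and in limma the adjusted p for 7 to 8 WAA was 0.106, 0.106 and 0.159 with that library and at most 0.000744 without it (at most 0.00235 without both libraries that stood apart), although XLOC_009552 and XLOC_010437 then had no spread. Of the 6 loci, 5 were off in all treated clusters of 8 WAA, and 1 was on in replicate 1 alone.

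In the 40 members with several isoforms, the units of a library mostly sat on 1 of them. All units were on 1 isoform in 262 of the 320 values of the 8 earlier controls (81.9%), but the leading isoform differed between these controls in 27 of the 40 loci. A reference form led in 21 of the 40. Over all members reference forms held 52.5% of the units in these controls and newly spliced forms 37.6%, against 63.2% and 32.6% over the 9902 loci. Where such members were on in treated clusters of 8 WAA (26 loci), 31 of the 36 isoforms with units had also been detected in an earlier control.

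The members with the most isoforms were XLOC_017693 with 12, VIT_205s0077g01370 (XLOC_022806, chromosome 5, 1115692 to 1122226) with 8 and a locus spanning VIT_211s0118g00030 and VIT_211s0118g00070 (XLOC_003726, chromosome 11, 5549962 to 5592134) with 7. XLOC_017693 was unlike the rest, since its longest isoform had 335 bases, the shortest such length among members, and its units were spread over several isoforms, with at most 16.7% on any 1. Each of its isoforms stood at 0 or 1 unit in every library. TCONS_00049425, TCONS_00049426, TCONS_00049429 and TCONS_00049432 had the same values in all 26 libraries. Whether its summed units count 1 signal more than once was not tested. VIT_205s0077g01370 had 1, 1, 2, 1 and 1 units in treated clusters at 7 WAA and 1, 0, 0, 0 and 0 at 8 WAA (limma, adjusted p = 0.273, and 0.0553 without both libraries that stood apart). XLOC_003726 had 4, 5, 3, 1 and 3 at 7 WAA and 1, 0, 1, 0 and 1 at 8 WAA, with an adjusted p of 0.148, against 0.0260 without replicate 4 of 7 WAA and 0.0242 without both (limma).

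The same choice made in the treated libraries alone, on in all 8 of 6 and 7 WAA and off in all 5 of 8 WAA, gave 24 loci, or 0.234% of the 10236 that were on in all 8. Of these 24, 7 were members, which is 11.1% of the members and 29.2% of the 24. Without replicate 4 of 7 WAA and replicate 1 of 8 WAA it gave 141 of the 10697 loci on in the remaining treated libraries of 6 and 7 WAA. Of the 141, 38 were members (60.3% of the members and 27.0% of the 141). These 2 libraries were singled out by the members' own values, so the 38 is not separate evidence. Without replicate 4 of 7 WAA alone 22 members met the choice, and without replicate 1 of 8 WAA alone 16, with the matching counts over all loci not made. In other orders of the weeks the same thresholds gave fewer loci in controls, 14 on at 6 WAA and off at 7 and 8 WAA, 9 on at 7 and 8 WAA and off at 6 WAA, 0 on at 6 and 8 WAA and off at 7 WAA, and 2 on at 8 WAA and off at both earlier weeks. In treated clusters 18 loci were on at 8 WAA and off at both earlier weeks, and 15 on at 6 WAA and off later, beside the 24. A further 7 were on at 7 and 8 WAA and off at 6 WAA, and 0 on at 6 and 8 WAA and off at 7 WAA. Without the 2 libraries these 4 counts were 22, 20, 15 and 7, beside the 141. The week of 6 WAA has 3 control and 3 treated libraries and the others 5 of each. Fewer loci of any kind were on at 8 WAA, so these counts are not on equal terms.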

How the data were processed

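For every library the authors deposited values of 90542 assembled isoforms, and for the series the locus, reference identifier, class code, position and length in bases of each. The deposited values are a signal of unknown scaling. Per the submitters' processing notes Bowtie2 2.2.3 was used. The sources used here give neither the program behind the values nor a genome build or annotation. Isoform values were summed per locus and divided by the library's commonest value above 0.5, which gave units. Of the locus sums above 0, 97.7% to 98.5% were within 0.01 of a whole unit. A unit is not known to be a read, so the depth is unknown and no count test was run. Deposited starts count from 0, since the length of 5900 single-isoform loci equals end minus start, and 1 was added. None of 31919 reference identifiers matched the RefSeq gene table.

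Groups and replicate numbers came from the titles. Loci that reached a value of 1 in 3 or more of the 13 treated libraries were fitted with limma 3.58.1 (R 4.3.3) on log2(value + 1) with a mean per week, two-sided, with Benjamini-Hochberg adjustment and a threshold of 0.05. Fold changes on this scale understate changes of low loci. In treated values shuffled within loci, 200 loci raised at 8 WAA by 1, 2 or 3 units were recovered at 22.5%, 43.0% and 76.0% over 16798 loci, and 9, 6 and 9 unchanged loci were called beside them. The raised loci were drawn from all levels, whereas members fell towards 0, so these shares do not carry over to the members. Named members are those that passed from 7 to 8 WAA, the 8 with the highest units in the earlier controls, those on in at least 4 treated libraries of 8 WAA, 3 without a reference identifier, the 3 with the most isoforms and 3 loci just outside. Smallest values just inside were tied and named none. Members, lists and tests were chosen with earlier results of these data known. Nothing shows that replicates across weeks are separate plants.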

Additional observations from a re-analysis of the deposited data

Results flagged for a closer look

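In treated clusters of 7 WAA, replicate 4 stood far below the other 4 libraries in the number of members on (34) and in their summed units (45.7). In treated clusters of 8 WAA, replicate 1 stood far above the other 4 in both measures (34 members and 43.6 units). Taken locus by locus, 18 members had 1 library far from the rest at 7 WAA, and in 13 of them it was replicate 4. At 8 WAA 24 members did, and in 19 of them it was replicate 1. Chance marks about 1 in 20 groups of this size, and values of 0 and 1 unit are marked whenever 1 library differs. The total units and the number of loci on marked no library in the groups of 5.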

How the results depend on the processing

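The number of members that fell from 7 to 8 WAA in treated clusters was 8. It stayed within 1.5 times of this under another pseudocount, filter, scaling, rounding or moderation, and with only those weeks in the fit. It was 33 with all 26 libraries in the fit (70 of 18622 tested loci lower). That fit holds the controls whose lack of spread at 8 WAA the choice of members fixed, so the 33 does not stand as separate evidence. With a replicate block the number was 2 (22 of 17186 tested loci lower), of which 1 (XLOC_023031) was among the 8. The block gave XLOC_020627, XLOC_027857 and XLOC_019879 an adjusted p of 0.0906, 0.0766 and 0.129 in limma. For 6 to 8 WAA it left 1 member (40 of 17186 tested loci lower). Same-numbered treated libraries of different weeks deviated with correlations of -0.018 to 0.104, so the numbers do not show a pairing. For 6 to 8 WAA (8, with 55 of 17186 tested loci lower) the count was 36 with all libraries (140 of 18622), with the same limit. It was 15 with scaled totals (120 of 17186), 21 for whole units without constant loci (150 of 14340) and 22 with only those weeks (269 of 15907). Without the 2 libraries that stood apart, chosen after seeing the data, the counts were 37 and 34, and 38 members met the choice in treated clusters. Leaving out each library in turn gave 4 to 25 members from 7 to 8 WAA, 5 to 25 from 6 to 8 WAA and 0 throughout from 6 to 7 WAA. It gave 65 to 80 members of the set, 25 to 44 members off in treated 8 WAA, and 7 to 22 that met the choice in treated clusters. Demanding 1.5 units at 6 and 7 WAA left 4 members. Of the named loci, the log2 fold change from 7 to 8 WAA changed sign in 3, and none of these values passed. Leaving out each library gave -0.25 to 0.00073 for XLOC_020998 (0.00073 without replicate 3 of 8 WAA), -0.25 to 0.0032 for XLOC_025305 (0.0032 without replicate 5 of 8 WAA) and -0.094 to 0.31 for XLOC_031167 (-0.094 without replicate 1 or 4 of 7 WAA). XLOC_025305 was also at 0.0032 with the replicate block, and XLOC_031167 at -0.14 without both libraries that stood apart.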
